A study of Homo sapiens with 3 samples.

Results

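The baseline transcriptome described here is the set of genes whose transcripts were detected in H2030-BrM3 cells with a non-targeting shRNA (a short hairpin RNA that matches no intended gene), the control of the series. H2030 is a human lung adenocarcinoma line, and H2030-BrM3 is a derivative of it enriched for cells that seed the brain of mice. RNA was taken after 1 day in RPMI 1640 medium with 10% fetal bovine serum and hybridized to an Illumina HumanHT-12 V4 BeadChip, on which beads that carry many copies of a probe report each transcript as a fluorescence intensity. Of the other 2 arrays of the series, 1 held cells with PARP1 targeting shRNA-1 and 1 held cells with PARP1 targeting shRNA-2, and they serve to see whether a gene was also detected there. Their signals are printed beside the control's for main genes, and no difference between groups is read from them. All groups are the same cell line, the control carries a hairpin vector too, and each group is 1 array, so no value has a replicate and no test was made.

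A gene was called on when at least 1 probe with its symbol had a detection p under 0.01, which ranks the probe's signal among the array's negative control probes, and off when none had. Its level is the non-normalized signal, in intensity units, of its brightest detected probe. By this rule 10171 of 20044 genes with a named probe were on in the control cells, which is 50.7%. Signals of different probes depend on the probe's sequence as well as on the transcript, so the orders given below are orders of brightness, and no ratio between genes is drawn from them.

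Lung adenocarcinoma arises from the gland-forming epithelium of the distal lung, and tumours of this kind are commonly recognised by the transcription factor NKX2-1, surfactant proteins and simple-epithelial keratins. Cancer cells in culture spend much of their messenger RNA on protein synthesis, the cytoskeleton and energy metabolism, while the factors that mark a lineage are encoded by a small part of it. Spread to the brain requires cells to leave vessels behind the blood-brain barrier and to live beside astrocytes, and genes for adhesion, gap junctions and protease inhibition have been tied to these steps.

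PARP1, the DNA break sensor targeted on the other arrays, gave 4365 on the control array, 1312 with hairpin 1 and 766 with hairpin 2. In the control cells it stood at rank 803 of the 10171 genes on. It was on with each hairpin as well, and the order of the arrays matches their labels. The 3 arrays were alike in their range. The median signal over 47309 probes was 153.6 on the control array, 152.2 with hairpin 1 and 161.7 with hairpin 2, where 35.6%, 34.6% and 36.8% of the probes exceeded background.

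The on and off calls of the control array were mostly repeated on the arrays of the PARP1 hairpins. Of the genes on in the control, 9703 (95.4%) were on on all 3 arrays, a share of 48.4% of all genes named. Off on all 3 were 9352 genes, 94.7% of those off in the control and 46.7% of all. The 177 genes on in the control alone were dim, with a median signal of 179.1 against 619.8 for genes on throughout. All 3478 genes above 1000 were on on every array, while of 1049 on genes under 200 only 607 were. Just inside the threshold lay NUDT8 at 174.195, PFN1P2 at 174.227 and SNORD3C at 174.231, and just outside it WARS2 at 174.155, ECM1 at 174.145 and WAS at 174.109. A gene so near the limit can fall on either side by a fraction of an intensity unit.

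A call of off does not show that a transcript was absent. RPL10, a subunit of every cytosolic ribosome, had both of its probes below the threshold on all 3 arrays, with 140.3, 126.2 and 128.3 by the brighter one. More probes also gave more chances to be on. Genes were on in 45.5% of cases with 1 probe, 58.2% with 2 and 66.8% with 3 or more. Among 4096 on genes with at least 2 probes, every probe was detected for 1929 and only some for 2167.

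The genes on had a median signal of 573.7, with a lower quartile of 271.2 and an upper one of 1475, and 238 of them exceeded 10000. The curve of signal against rank falls slowly over the first genes and then steeply, with SPP1 and VIM on its upper part and the lineage factor SOX2 next to the detection limit.

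**Figure D1:**
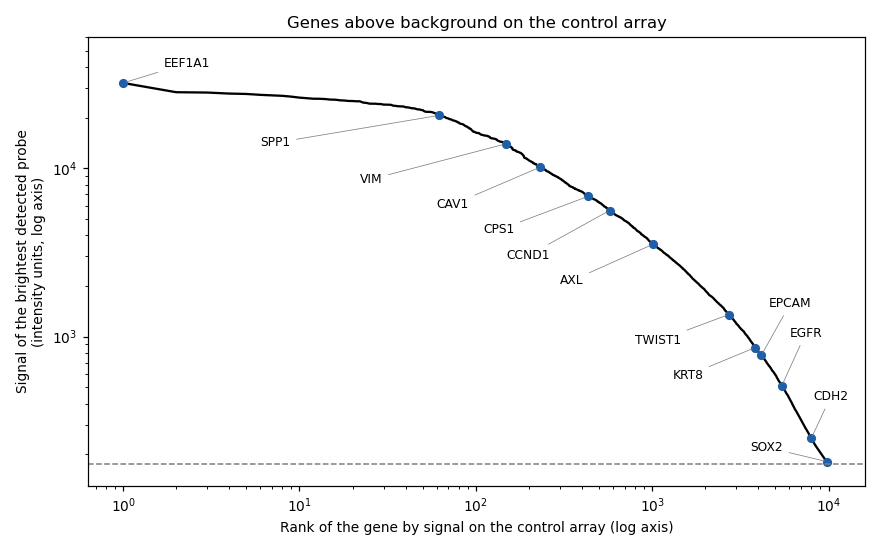
Signal of the brightest detected probe of each of the 10171 genes on in the control cells (intensity units, log axis) against the gene's rank (log axis), with the dashed line at the lowest signal above background, 174.2. EEF1A1 was the brightest at 32104, SPP1 lay at 20604, VIM at 13963, KRT8 at 861 and SOX2 at 180.8.

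The brightest transcripts were those of the protein synthesis machinery, the cytoskeleton and iron and redox handling. The letters around the annotated transcription start of the 8 brightest coding genes with a RefSeq window are shown because some of them hold a feature that is common among ribosomal protein genes and others do not. Each line holds 50 bases, 30 before the start and 20 from it on, in GRCh38.p14, read on the gene's own strand. Capitals mark a pyrimidine tract, here a C at most 3 bases from the start followed by at least 4 C or T and extended to the next purine, searched on the gene's strand only.
EEF1A1, chr6:73521013-73521062, minus strand: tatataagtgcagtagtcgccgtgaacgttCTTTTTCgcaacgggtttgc
FTL, chr19:48965279-48965328, plus strand: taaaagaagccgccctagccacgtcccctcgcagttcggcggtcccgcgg
TPT1, chr13:45341164-45341213, minus strand: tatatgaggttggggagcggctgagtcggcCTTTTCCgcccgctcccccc
RPS12, chr6:132814539-132814588, plus strand: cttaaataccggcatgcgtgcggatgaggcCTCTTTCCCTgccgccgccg
RPL41, chr12:56116603-56116652, plus strand: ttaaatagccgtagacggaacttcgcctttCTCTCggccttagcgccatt
TMSB4X, chrX:12975080-12975129, plus strand: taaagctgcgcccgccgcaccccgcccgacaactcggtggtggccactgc
S100A10, chr1:151993840-151993889, minus strand: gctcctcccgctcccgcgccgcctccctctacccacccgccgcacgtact
ACTG1, chr17:81512780-81512829, minus strand: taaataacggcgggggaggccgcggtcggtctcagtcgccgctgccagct

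Messenger RNAs that begin with such a tract are known as TOP messages, whose translation is tuned by growth and nutrient signals. In 4 of the 8 windows, those of EEF1A1, TPT1, RPS12 and RPL41, a tract could be marked from the annotated start itself, the position tried first. In each of these 4 the base before the start was also C or T. The capitals there are thus part of a longer run, and where they begin was set by the search. In the windows of FTL, TMSB4X, S100A10 and ACTG1 no tract was found. Of 72 cytosolic ribosomal protein genes on in these cells, 61 had a window in the RefSeq table, and 49 of these (80.3%) held the tract at one of their annotated starts. The share was 13.0% over all 35116 windows of the table and 16.02% over its 27305 genes. Among all coding genes on it was 19.8% of the 8200 with a window. Of the 300 brightest coding genes 254 had a window and 35.0% of them held it. After leaving out ribosomal protein genes and genes with a translation factor symbol, the share was 23.2% of 198. With the coding genes on split into 4 equal groups from the dimmest to the brightest, the shares were 17.6%, 20.8%, 17.7% and 22.9%, so the tract did not follow brightness step by step. A match of letters is a description and not a measured start or a measured translation rate. Genes on and off were not compared in this way, because only 77.4% of the coding genes off had a window, below the 80% needed.

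EEF1A1, which carries aminoacyl-tRNAs to the ribosome, was the brightest gene, with 32104 on the control array and 30863 and 31837 with hairpins 1 and 2. Its 4 probes were all detected, and the dimmest of them read only 462.0 on the control. FTL, the light chain of the iron store ferritin, followed with 28283, 29001 and 29525. TPT1, the translationally controlled tumour protein, gave 28151, 26859 and 27449. By their brightest probes, every reading of these genes exceeded that of the 30th brightest gene of the control array, 23869.

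Of the 30 brightest genes, 13 encode cytosolic ribosomal proteins, from RPS12 at 27758 and RPL41 at 27615 to RPS27 at 24173 and RPS20 at 24070. Over the whole family 72 of 76 named genes were on, all on every array, against the 50.7% of genes in general. Besides RPL10, the members off were RPL10L, RPL22L1 and RPL3L, which are paralogs of more widely used ribosomal proteins. Within the family signals ran from 180.1 for RPL37 to that of RPS12, with a median of 16313. Of 67 genes with a translation factor symbol, which include regulators of such factors like EEF2K and EIF4EBP1, 62 were on (92.5%). Ribosomal proteins made up 36 of the 100 brightest genes and 51 of the 300 brightest.

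The cytoskeleton supplied ACTG1 at 26619 and ACTB at 26263, the cytoplasmic actins. TMSB4X, which binds actin monomers, gave 27282, and PFN1, which feeds monomers to growing filaments, gave 25525. TUBA1C, an alpha tubulin, closed the 30 at 23869. S100A10, the partner of annexin A2 at the cell surface, stood eighth with 26915 on the control array and 22293 and 25480 with hairpins 1 and 2, and both of its probes were bright. The thiol reductase TXN gave 24981, and UBB, a source of ubiquitin, 25313.

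Some of the brightest names are less certain. RPL13AP5 at 27092 and RPL13AP20 at 24180 are annotated pseudogenes nearly identical in sequence to the ribosomal protein gene RPL13A, so the transcripts behind their probes cannot be told apart from it here. LAIR1, a collagen receptor of blood cells, gave 25872 with 1 probe and 156.1, below the threshold, with the other. CLEC2D, a ligand of a natural killer cell receptor, gave 24050 and 6572 with 2 probes while its other 3 were at 149.9 or less and off. CLUAP1, a ciliary transport protein, gave 24164 with 1 probe, and its remaining 4 probes were on but between 263.7 and 464.2. F2R, the thrombin receptor PAR1, gave 26065 and 322.1 with its 2 probes, both on. TMSB4X also had 1 probe off, at 165.7, beside its bright one. For LAIR1, CLEC2D, CLUAP1 and F2R the rank rests on a single probe, and which transcript that probe reads was not tested.

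Fixed lists of lineage, oncogene, metastasis and urea cycle genes were then read for their on and off members. Together 170 of their 387 distinct named members were on, 43.9%, against 50.7% over all genes. As a class that cells outside the nose seldom use, 5 of 371 olfactory receptor genes were on (1.35%, exact binomial 95% interval 0.439% to 3.12%, counting error only), and 4 of the 5 were on on all arrays. A lone member of a list barely above 174.2 is therefore not read as a sign of its cell type here.

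**Figure D2:**
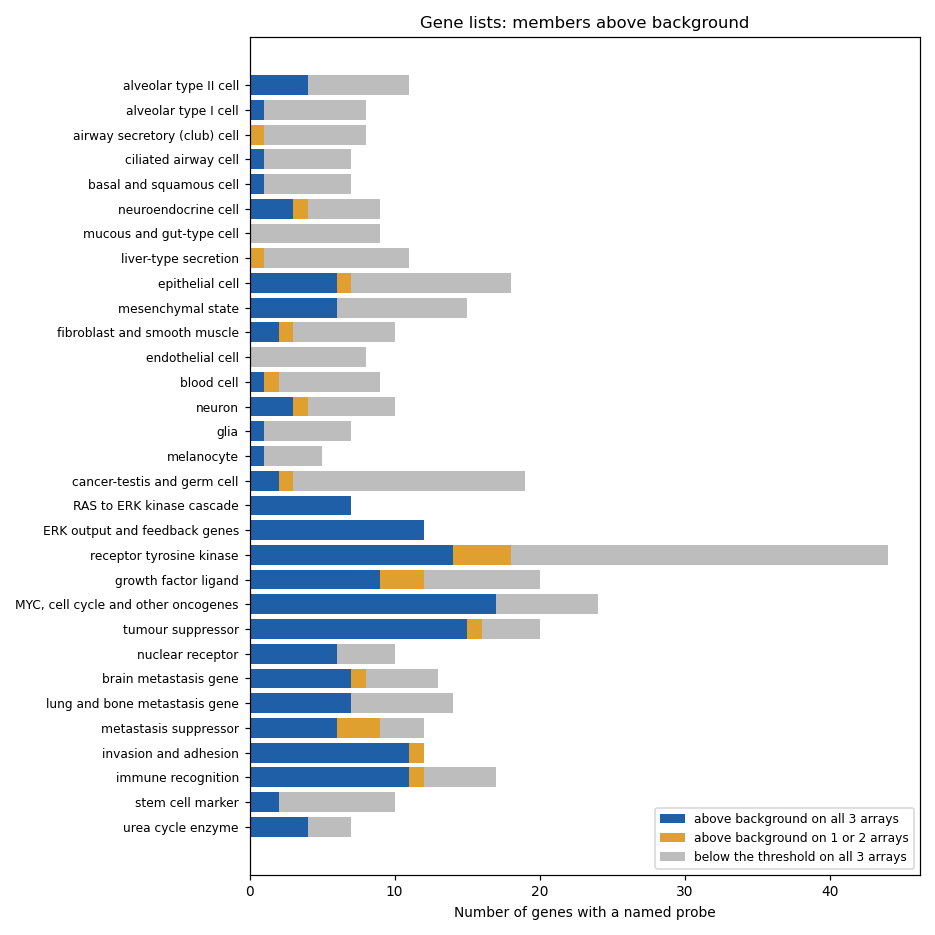
Number of members of each gene list with a named probe, split into those above background on all 3 arrays, on 1 or 2 arrays, and on none. The 12 ERK output genes and the 7 named members of the RAS to ERK cascade were on throughout, and the endothelial and gut-type lists had no member on.

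The labelled tissue of origin was only partly visible in its markers. Of 11 named markers of alveolar type II cells, which make surfactant, 4 were on (36.4%, against 50.7% of all genes). The other 7 were off on all 3 arrays. NKX2-1, the factor that specifies lung epithelium, gave 145.2 on the control array and 138.1 and 144.9 with hairpins 1 and 2, below the threshold with both of its probes. The surfactant protein genes SFTPA1, SFTPB, SFTPC and SFTPD were off throughout, the brightest reading being 165.0. So were NAPSA, the aspartic protease used beside NKX2-1 in diagnosis, and the phosphate transporter SLC34A2. The members on were LPCAT1, an enzyme of surfactant lipid remodelling, at 1013, 872 and 988, the transcription factor CEBPA at 597, 561 and 735, the lamellar body lipid pump ABCA3 at 278, 304 and 380, and LAMP3 at 183.6, 192.6 and 215.4. LPCAT1 and CEBPA are also used widely outside the alveolus.

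Markers of the other cell types of the airway were mostly off, where 50.7% of all genes were on. CAV1, the coat protein of caveolae, was the only one of 8 alveolar type I genes on, with 10152, 9348 and 11865, and it is also common in cells of other types. Of 8 club cell genes only CYP4B1 was on in the control, at 174.4 next to the limit, and its status differed between arrays. Of 7 ciliated cell genes only CAPS was on, at 201.7. Of 7 basal and squamous genes only SOX2 was on, at 180.8, 210.2 and 191.7. KRT5 and KRT14, the keratins of basal cells, were off. None of 9 gut-type and mucous genes was on, and the secretory-lineage gene AGR2 read 172.3 just under the limit. Of the liver secretion genes ALB alone was on, at 201.1, and not on every array.

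Epithelial identity was carried by some genes and missing in others. Of 18 epithelial genes 7 were on (38.9%, against 50.7% of all genes). KRT8 and KRT18, which pair in the filaments of simple epithelia, gave 861 and 549 on the control array, 892 and 501 with hairpin 1 and 936 and 544 with hairpin 2. EPCAM, an adhesion molecule of epithelial cells, was on with all 3 of its probes, the brightest giving 774, 804 and 929. OVOL2, which restrains mesenchymal programmes, gave 436, 361 and 416. The claudin CLDN7 gave 281.9, 196.3 and 236.3 and the factor ELF3 250.3, 239.5 and 276.3. CLDN3 at 187.5 was on in the control and not on every array.

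Off on all 3 arrays were CDH1, the cadherin of epithelial junctions, at 160.8, 138.0 and 164.8, the splicing regulators ESRP1 and ESRP2, the factor GRHL2, and the keratins KRT7 and KRT19 that are common in lung adenocarcinoma. CDH1, KRT7 and KRT19 each had 1 named probe. CLDN4, EHF, ST14, OVOL1 and RAB25 were off as well.

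The mesenchymal list was split in the same way, with 6 of 15 genes on (40%, against 50.7% of all genes). VIM, the filament protein of mesenchymal cells, gave 13963, 13340 and 14485 and was detected with both probes. TWIST1, a factor of the epithelial to mesenchymal transition, gave 1351, 1048 and 1227, and its paralog TWIST2 214.6, 216.3 and 245.6. CDH2, the neural cadherin, was on at 248.7, 342.9 and 275.8, and the collagen genes COL3A1 and COL1A1 read 303.1 and 176.4 on the control. Off on all 3 arrays were FN1, SPARC, FBN1 and PRRX1 together with the other transition factors of the list, ZEB1, ZEB2, SNAI1 and SNAI2. Thus the cells showed VIM without CDH1 or FN1, TWIST1 without ZEB1, and KRT8, KRT18 and EPCAM beside them, as far as these probes report. Each signal is an average over the culture, so few cells rich in a transcript and many cells with little of it cannot be told apart.

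**Figure D3:**
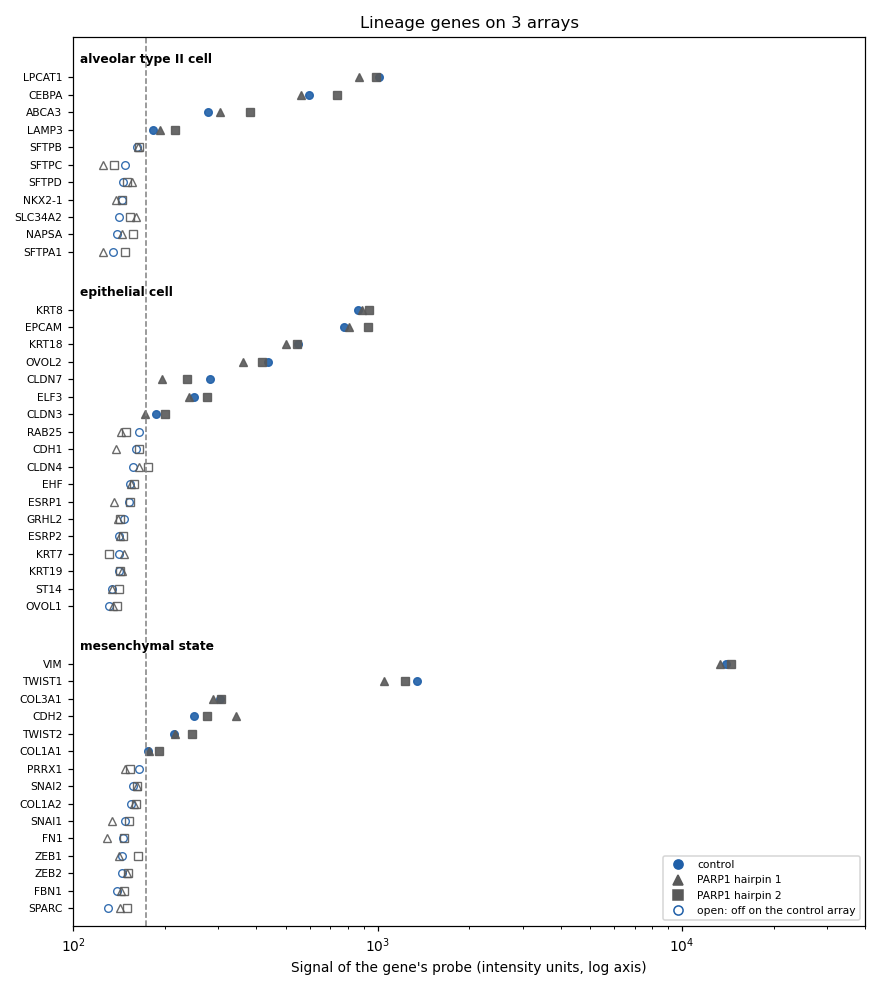
Signals of alveolar type II, epithelial and mesenchymal genes on the control array (circles) and the PARP1 hairpin 1 (triangles) and hairpin 2 (squares) arrays, in intensity units on a log axis, with open symbols for genes off in the control and a dashed line at its lowest detected signal, 174.2. VIM lay at 13340 or above on each array, while CDH1, NKX2-1 and the surfactant genes lay left of the line in the control.

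Markers of cells that a culture of this line should not hold were off with few exceptions, where 50.7% of all genes were on. All 8 endothelial genes were off on all 3 arrays, including PECAM1 and VWF. Of 9 blood cell genes the pan-leukocyte PTPRC, CD3E, MS4A1 and HBB were off, CD68, a lysosomal protein, was on at 797, and LYZ at 175.2 sat on the limit. Of 10 fibroblast and smooth muscle genes ACTA2 at 537 and TAGLN at 1139 were on, both actin cytoskeleton genes, while PDGFRB, DCN and LUM were off. Melanocyte pigment genes were off, with MITF on at 215.6.

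Of 10 genes named for neurons 3 were on (30%) and of 7 named for glia 1 (14.3%), against 50.7% of all genes. A few of these were on at clear levels. TUBB3, a beta tubulin of neurons, gave 6257, 6006 and 6307, and MAP2, which binds microtubules in dendrites, gave 1952, 2074 and 1913 with 3 of 4 probes detected. MBP, the basic protein of myelin, gave 2409, 2469 and 3155 and was detected with all 3 probes. NEFL, a neurofilament gene, was on at 211.5, 182.6 and 250.7, and SYN1, of synaptic vesicles, was off in the control and not on every array. The remaining 6 genes of each list, among them RBFOX3, SNAP25, STMN2, GFAP, OLIG2 and SOX10, were off throughout. In the neuroendocrine list DLL3, an inhibitory Notch ligand, gave 918, 909 and 993 with 1 of its 2 probes. INSM1 and NCAM1 lay under 200 on all arrays, and CHGA, SYP, GRP and CALCA were off. Of 19 germ cell genes 3 were on (15.8%, against 50.7% of all genes). MAGEA1 was on with both probes, at 1739, 1269 and 1471, and PRAME with 2 of 3 probes, at 1100, 1158 and 1331. MAGEA6, at 179.4 in the control, was not on on every array. MAGEA3, MAGEA4, CTAG1B and the pluripotency genes NANOG and LIN28B were off.

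The growth pathway from RAS to ERK, which relays receptor signals to the nucleus and is commonly activated by mutation in lung adenocarcinoma, was on at every step with a named probe. MAP2K1 and MAP2K2, the kinases that phosphorylate ERK, gave 2127 and 1074 on the control, 1917 and 1195 with hairpin 1 and 2321 and 1557 with hairpin 2. RRAS gave 1981, HRAS 853, MAPK3, which encodes ERK1, 780, and ARAF 666. Genes that ERK signalling is known to induce, most of which feed back on it, were on in 12 of 12 cases on all 3 arrays. The share of all genes on was 50.7%, and for 8 of the 12 every probe was detected. SPRY1, an inhibitor of receptor signalling, gave 4042, 3641 and 4690. PHLDA1 gave 3934, 3651 and 4475, and ETV5, an ETS factor, 1986, 2284 and 2650. The dimmest member was ETV4 at 334.7, and the phosphatases DUSP4, DUSP5 and DUSP6 read 445, 997 and 498 on the control.

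Receptor tyrosine kinases were on in 15 of 44 cases (34.1%, against 50.7% of all genes), and in 9 with every probe. The brightest was AXL, a receptor tied to invasion and drug resistance, with 3529, 3900 and 3753, and both probes on. MET, the receptor of hepatocyte growth factor, gave 938, 928 and 1164. EPHB4 gave 673, EPHA2 598, ERBB2 597, DDR1 528 and EGFR 510 on the control. IGF1R was on at 177.2, 180.4 and 184.0, close to the limit on each array. The kinases rearranged in some lung cancers, ROS1 and RET, were off on all 3 arrays, as were KIT, INSR, FGFR1, FGFR2 and ERBB4, and ALK was off in the control at 169.9. AXL's sister receptors TYRO3 and MERTK were on at 342 and 336.

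Of 20 growth factor genes 11 were on (55%, against 50.7% of all genes), with 7 at a detection p under 0.001 and 4 with every probe detected. GAS6, the ligand of AXL, gave 879, 863 and 903, so receptor and ligand were both detected. VEGFB gave 2638, PDGFC 593 and VEGFC 545, while VEGFA read 246.8 with 1 of its 3 probes on. For the EGF receptor HBEGF was on at 398, 391 and 520, and EGF, EREG and BTC were off throughout, with TGFA at 169.3 below the limit in the control. HGF, the ligand of MET, was off with all 3 probes, and IGF1 and IGF2 were off as well.

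Cell cycle and growth genes were on in 17 of 24 cases (70.8%, against 50.7% of all genes), each on all 3 arrays. CCND1, the cyclin that starts the cycle, gave 5608, 5222 and 6143, and its partners CDK4 and CDK6 gave 4609 and 3672 on the control. MYC gave 4341, 3767 and 4661 with both probes on. AKT1 gave 5305, the chromatin protein HMGA1 4219 with 1 of its 3 probes, BMI1 2497 and YAP1 1208. MYCN, MYCL, CCND2, CCNE2, AKT2, TERT and MDM2 were off throughout.

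Of 20 named tumour suppressor genes 15 were on (75%, against 50.7% of all genes), though for only 5 was every probe detected. RBM10, a splicing factor, gave 3290.5, ARID1A 2819, CDKN1A 1526 and KEAP1, the brake on NRF2, 1497. CDKN2A was on with 2 of 3 probes, at 908, 878 and 1006, and RB1 at 314, 311 and 370. STK11, the kinase LKB1 that restrains growth under low energy, read 158.3, 169.7 and 166.9 with its only named probe and was off on all 3 arrays. APC, FHIT and CDKN1C were off throughout, and NF1 at 169.5 was off in the control. In the urea cycle list CPS1, the enzyme that makes carbamoyl phosphate in mitochondria, gave 6809, 6430 and 9097. Of the rest ASS1, ARG2 and ASL were on at 559, 246 and 191.9, and OTC, NAGS and ARG1 were off, so the cycle was detected only in part.

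Of 13 genes tied earlier to brain metastasis 8 were on (61.5%, against 50.7% of all genes) and 5 were off on all 3 arrays. At a detection p under 0.001 there were 4 on, and 5 when every probe of a gene had to be detected. GJA1, the connexin 43 of gap junctions, gave 1359, 1577 and 1772, and PCDH7, a protocadherin known to bring cancer cells and astrocytes together for such junctions, gave 1309, 1438 and 1502 with 3 of 4 probes on. ANGPTL4, a secreted protein that loosens vessel walls, gave 2026, 1863 and 2062 with all 3 probes on. SERPINI1, neuroserpin, an inhibitor of plasminogen activators, was on at 234.5, 256.1 and 271.5. L1CAM, the adhesion molecule that such serpins protect from cleavage, was off on all 3 arrays at 151.7, 167.8 and 170.5. PTGS2, cyclooxygenase 2, was on at 194.3, 212.4 and 231.4, dim on each array. LEF1, a WNT target factor known from lung cancer metastasis, read 181.1, 169.8 and 196.9 and was on in the control but not on every array. HOXB9, its companion in that setting, was off, as were ST6GALNAC5, CTSS and the chemokine receptor CXCR4.

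Of 14 genes known from spread to lung and bone 7 were on (50%, near the 50.7% of all genes). The other 7 were off on all 3 arrays. SPP1, osteopontin, a secreted integrin ligand, was the brightest of any fixed lineage, oncogene or metastasis list, with 20604, 21452 and 21690 and both probes on. CCN2, a matrix protein induced by YAP and TGF-beta signals, gave 15064, 15434 and 16487. The tryptophan pathway enzyme KYNU gave 8790, 8011 and 9458, and the differentiation inhibitors ID3 and ID1 7200 and 3605 on the control. CXCL1 and TNC, at 449 and 435, were the dimmest members on. MMP1, MMP2, VCAM1, SPARC, LTBP1, IL11 and EREG were off on all 3 arrays. No member of this list differed in status between arrays.

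Genes known as metastasis suppressors were on in 8 of 12 cases (66.7%, against 50.7% of all genes), and in 5 at a detection p under 0.001. NME1, a nucleoside diphosphate kinase, gave 15719.7, 13924 and 15629, and the next, MAP2K4, 742 on the control. CADM1, BRMS1 and CD82 lay between 275.2 and 453.6. KISS1, its receptor KISS1R and the protease inhibitor TIMP3 were off throughout, and RECK at 174.0 was off in the control by a narrow margin.

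**Figure D4:**
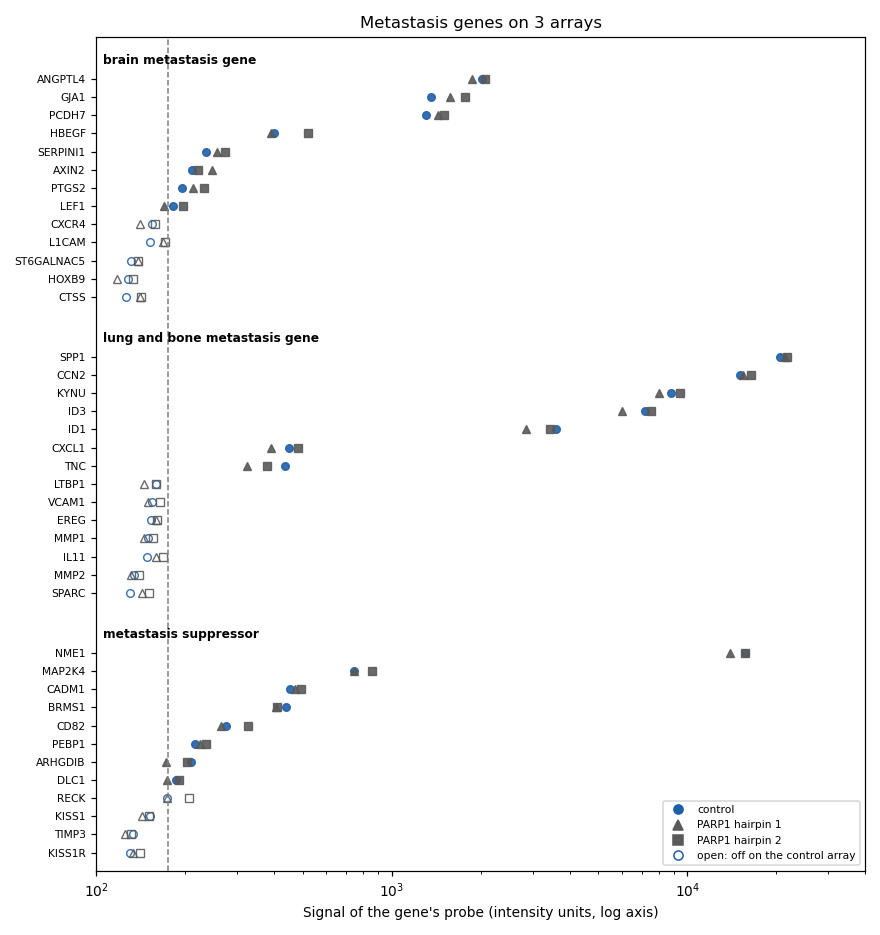
Signals of genes tied to brain metastasis, to lung and bone metastasis, and of metastasis suppressors on the control array (circles) and the PARP1 hairpin 1 (triangles) and hairpin 2 (squares) arrays, in intensity units on a log axis, with open symbols for genes off in the control and a dashed line at 174.2. SPP1, CCN2 and NME1 lay at or above 13924 on each array, and MMP1, L1CAM and CXCR4 were off.

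Adhesion and invasion genes were on in 11 of 12 cases (91.7%, against 50.7% of all genes), all 11 on every array, and in 7 with every probe detected. EZR, which links membrane to actin, gave 13450.0, 13224 and 17044 and the integrin chain ITGB1 8144, 8286 and 9419. CD44, a hyaluronan receptor, gave 3663, 3702 and 5187 with 2 of 3 probes. PLAUR, the urokinase receptor, gave 1786 on the control, and its ligand PLAU 192.0. MMP14 at 169.2 was the member off there. Of 17 genes of immune recognition 12 were on (70.6%, against 50.7% of all genes). The class I pathway was present, with B2M at 6497, 5704 and 7178, the peptide transporter TAP1 at 2528 and HLA-E and HLA-B at 720 and 605. HLA-C read 184.2 with 1 of its 2 probes and was not on on every array. CD276 gave 991 and CD47 440.2. Of the class II pathway HLA-DRA was on at 333, 333 and 394 with 1 of its 2 probes, while CD74 and the regulator CIITA were off throughout. Also off on all 3 arrays were NLRC5, a regulator of class I genes, CD274, which encodes PD-L1, and PDCD1LG2. Of 10 stem cell markers only BMI1 and KLF4, at 407, were on (20%), and PROM1, ALDH1A1, CD24 and LGR5 were off.

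For proteins that exist as paralogs, it was read which copies had a probe above background. Of 62 families listed, 58 had at least 2 members with a named probe, and 153 of their 239 members were on (64.0%, against 50.7% of all genes). All members were on in 15 families, some in 30, exactly 1 in 12 and none in 1. The last was the lactate transporters, of which only SLC16A7 and SLC16A8 had a named probe.

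In several of the 12 families with 1 copy on, the detected copy was the widely expressed one and the muscle or tissue form was off. PKM, the pyruvate kinase of proliferating tissue and muscle, gave 3519 with 3 of 3 probes, and PKLR, the liver and red cell form, was off with 5 of 5. PGAM1 at 5249 was on and its muscle form PGAM2 off. The respiratory subunits COX4I1, COX6A1 and COX7A2 gave 15574, 6717 and 14930, and their paralogs COX4I2, COX6A2 and COX7A1 read 147.5 or less. CKB, the brain-type creatine kinase, gave 888, and CKM, CKMT1B and CKMT2 were off. MYC, AKT1 and FTL were each the only named member on of their families. HIF1A was on at 747 with 3 probes while EPAS1, at 170.6, and HIF3A were off. FGFR3 at 211.8 was the only FGF receptor on in the control, though FGFR4 passed the limit on a hairpin array. PTGS2 was on without PTGS1. In 11 of the 12 families the status was the same on all 3 arrays, the FGF receptors being the exception.

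**Figure D5:**
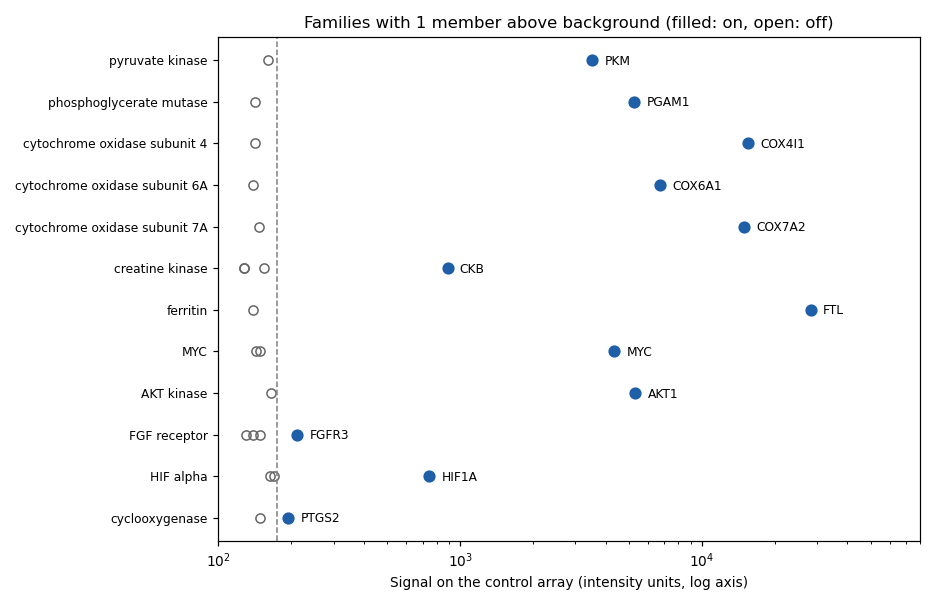
Signal on the control array (intensity units, log axis) of the members of the 12 families in which exactly 1 named member was above background, filled and named when on, open when off, with the dashed line at 174.2. The copies on ranged from PTGS2 at 194.3 to FTL at 28283, and all other members lay left of the line.

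In other families several copies were on together. The alpha tubulins TUBA1A, TUBA1B and TUBA1C gave 22469, 23823 and 23869, and TUBA8 and TUBA3C were off. As these tubulins are close in sequence, probes may read more than 1 of them. Of the beta tubulins TUBB at 15543, TUBB3, TUBB4B, TUBB6, TUBB2A and TUBB4A were on, and TUBB1, the platelet form, and TUBB2B were off. The lactate dehydrogenases LDHA and LDHB gave 19134 and 9142, and the testis form LDHC was off in the control. ENO1 gave 22182 and ENO3 665, and ENO2, often used as a neuroendocrine marker, was off at 148.7. Glucose transport was represented by SLC2A1 at 3026 and SLC2A3 at 6260.0, and the liver and fat forms SLC2A2 and SLC2A4 were off. Both EEF1A1 and EEF1A2 were on, the second, a form of neurons and muscle, at 7603.

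Families of surface, matrix and signalling proteins were read in the same way. Among annexins, which bind membranes with calcium, 8 of 12 were on (66.7%, against 50.7% of all genes). They were led by ANXA2 at 18710 and ANXA1 at 11037. LGALS1, galectin 1, gave 13407, LGALS8 399, and LGALS3 was off in the control with both probes. CAV1 and CAV2 were on and the muscle form CAV3 off. Of the connexins GJC1 gave 9852 with 1 of its 2 probes, GJB2 2113 and GJA1 1359, while GJB1 and GJB6 were off. Glutathione transferases were on in 8 of 10 cases (80%, against 50.7% of all genes), led by GSTP1 at 12536. Aldo-keto reductases AKR1C1 and AKR1C2 were off, AKR1C2 with all 6 probes, and AKR1C3 was on at 898. The Notch ligands JAG2 and DLL3 were on at 1232 and 918, and JAG1, DLL1 and DLL4 were off. DNMT1, which copies DNA methylation, gave 10824, DNMT3B 275.9, and DNMT3A was off with its 3 probes. TEAD2 and TEAD4 gave 2483 and 2273, TEAD1 191.4, and TEAD3 was off.

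Further families were defined by symbol. Of 49 keratin genes 4 were on (8.16%, against 50.7% of all genes). These were KRT80 at 2320, KRT10 at 1845, KRT8 and KRT18, all on every array. KRT80's brighter probe gave 2320, 1990 and 2525. Of 81 keratin-associated protein genes 1 was on (1.23%), at 197.3. Mucin genes were on in 1 of 12 cases (8.33%), MUC1 at 1534 with 3 probes. Collagens were on in 11 of 43 cases (25.6%) and were mostly dim. COL4A5, a basement membrane chain, was the brightest at 1309, and the median was 209.6.

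Among developmental factors the HOXC cluster had 6 of 9 members on (66.7%, against 50.7% of all genes). Its HOXC8 gave 2053 and HOXC6 2035. HOXB had 4 of 10 on (40%), the brightest HOXB5 at 452, and HOXD 1 of 9, HOXD11 at 237.8. Of HOXA the 1 named gene, HOXA2, was on at 383. Each of these HOX genes named was on on all 3 arrays. Of 19 SOX genes 8 were on (42.1%, against 50.7% of all genes). They were led by SOX15 at 3054, SOX18 at 2175, SOX4 at 2158 and SOX9 at 784. Of 42 FOX genes 17 were on (40.5%), 13 of them on all 3 arrays. Among the 17 were FOXJ2 at 1298, FOXD1 at 1188 and the proliferation factor FOXM1 at 1127. FOXA1, a pioneer factor of endoderm, gave 706 and FOXA2 392 with 1 of 3 probes. None of 6 GATA and none of 9 PAX genes was on on any array.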

How the data were processed

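Total RNA of 3 samples was hybridized to HumanHT-12 V4 BeadChips, 1 array per group. The deposited non-normalized table gives 1 intensity per probe, averaged over its beads, and, per the file headers, a detection p-value beside each, which moved in steps of 1 in 770. GenomeStudio is named in the submitters' processing notes, with its version and background setting not given in the sources used here. A second deposited table holds normalized intensity values of the same probes, used only as an alternative. When the non-normalized intensities were read, 14 lines without probe values were left out. All columns matched a sample (0 did not).

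Probes were named by the platform annotation: 30106 of 47309 had 1 symbol, 8 had several and were not named, and 30067 were found in RefSeq (GRCh38.p14), with 0 symbols updated. The detection threshold of 0.01, the brightest detected probe per gene, the gene lists and the naming rule were applied with Python 3.11.15 and pandas 2.3.3. The rule named PARP1, the 30 brightest genes, list and family members with the defining ones first, up to 6 genes per symbol family, and 3 genes on each side of the threshold. List members without a named probe are not reported here. The members and lists were chosen with earlier results of these data known. Exact intervals came from scipy 1.17.1 and figures from matplotlib 3.10.9. Signal over background limits what can be seen, and the number of arrays limits the precision. Promoter windows (250 bases before to 50 after each start) are RefSeq's, and a gene counted when any of its starts held the tract.

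Alternatives were thresholds of 0.05 and 0.001, every named probe above background, all 3 arrays, the mean of detected probes, the other arrays' rankings, the deposited normalized values and neqc of limma 3.58.1 in R 4.3.3 (offset 16). The code that makes the calls was run on simulated data with known answers, in which each gene on had a probe far above background. That run therefore does not bear on calls near the threshold. No paired analysis was possible because no comparison between groups was made.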

Additional observations from a re-analysis of the deposited data

Results flagged for a closer look

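Probes without a gene symbol in the annotation used were outside the counts of genes, and many of them carried signal. On the control array 3403 of 17203 such probes (19.8%) were above background, against 44.7% of the named probes, and 2951 were above background on all 3 arrays. The highest of them read 28015.5, within the range of the 30 brightest genes. Which transcripts they read was not analysed here.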

How the results depend on the processing

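The count of genes on in the control cells stayed within 1.5-fold of 10171 under each alternative: 11591 at a detection p under 0.05, 8194 at 0.001, 8004 when every named probe had to be detected and 9703 on all 3 arrays. Requiring every probe lowered the fixed list members on from 170 to 106 and raised the families with exactly 1 member on from 12 to 21, since a gene with several probes then fails with any one of them. The other settings gave 134 to 205 members and 9 to 13 families. Olfactory receptor genes on were 5.93% at 0.05 and 0.270% at 0.001, and between 0.809% and 1.08% with the remaining settings, against 1.35%. Of the 30 brightest genes, 30 were kept after neqc and on the deposited normalized values, which keep the order within an array, 21 with the mean of detected probes, and 20 on each hairpin array. With 2 settings chosen after seeing the data, 27 were kept when every probe had to be detected and 28 without pseudogenes. These 2 counts were fixed in advance, because 3 of the 30 genes had a probe off and 2 were pseudogenes. They therefore do not bear on how stable the ranking is. Over 31 fixed lists, the count on stayed within 1.5-fold in 23 lists at 0.05, 21 at 0.001, 16 with every probe and 28 on all 3 arrays. Signal over background sets the limit: a transcript whose probe reads under 174.2 gives no level here. No paired analysis was possible because the report makes no comparison between groups.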

Other observations

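Secreted immune signals were few but some were bright. Of 36 interleukin genes 7 were on (19.4%, against 50.7% of all genes), all on every array. IL18, a cytokine stored by epithelial cells until inflammasomes release it, gave 10709.5, and IL6 gave 729. IL10, an anti-inflammatory cytokine, gave 2705 with 1 of its 2 probes, and the other read 134.3, off on all 3 arrays. Of 26 CC chemokine genes 3 were on (11.5%). CCL2, which draws monocytes, gave 1627, CCL20 654 and CCL5 226.5. Serpins were on in 5 of 31 cases (16.1%). Among them were SERPINE2, an inhibitor of thrombin and plasminogen activators, at 6572 and the collagen chaperone SERPINH1 at 1729.

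Enzymes and pumps that handle drugs, vitamins and foreign compounds showed a mixed picture. Of 53 cytochrome P450 genes 18 were on (34.0%, against 50.7% of all genes), the brightest being CYP1B1 at 3842. CYP26B1 and CYP26A1, which break down retinoic acid, gave 1913 and 818. CYP24A1 and CYP27B1, which inactivate and activate vitamin D, gave 1418 and 487. UDP-glucuronosyltransferases, which tag lipophilic compounds for excretion, were on in 1 of 19 cases (5.26%), UGT1A3 at 216.2. Of 42 ATP-binding cassette genes 19 were on (45.2%, near the 50.7% of all genes), with the efflux pumps ABCC3 at 3326 and ABCC2 at 1376.5 and the ribosome factor ABCF1 at 5037, while ABCG2 was off. Among nuclear receptors RXRA, NR2F1, RARA and PPARG were on at 682, 656, 594 and 479, and ESR1, PGR, RARB and RARG were off on all 3 arrays.

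Of 10 frizzled genes, which encode WNT receptors, 8 were on, led by FZD2 at 909 and FZD6 at 563. Of 19 WNT ligand genes 5 were on, the brightest WNT2B at 208.0. The shares were 80% and 26.3%, beside 50.7% of all genes, and their difference was not tested. Of 53 clustered protocadherin genes 9 were on (17.0%), PCDHB2 at 2566 with both probes and the rest at 300.7 or less. By RefSeq class 54.7% of 17774 coding genes were on, 18.3% of 798 long non-coding RNAs and 3.75% of 560 miRNA genes. Among the 22 autosomes and the X chromosome, the share of coding genes on was lowest on the X, at 42.8% of 741 genes, followed by chromosome 11 at 45.3% of 1200 genes.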
